A study of Mus musculus with 26 samples.

Results

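The genes described here are the chains of CD3 (*Cd3d*, *Cd3e*, *Cd3g* and *Cd247*) and the constant genes of the T cell receptor α, β and δ chains (*Trac*, *Trbc1*, *Trbc2* and *Trdc*). They were taken by gene symbol, and all 8 were found among the 55401 gene rows of both count tables. RNA was sequenced in bulk from group 2 innate lymphoid cells (ILC2s) of the lungs of unchallenged, age-matched female mice. Freshly sorted cells gave 3 libraries from naïve C57BL/6J mice and 3 from naïve CC030 mice, each from a different mouse. In a second experiment, ILC2s of 5 further CC030 mice were cultured with the cytokines IL-33 and TSLP, each at 10 ng/mL, and with human IL-2 at 100 U/mL. The cells of each mouse were divided between DMSO vehicle and AR420626 (10 µM), an agonist of the short-chain fatty acid receptor FFAR3, and were harvested on day 2 and day 6, which gave 20 libraries. The mouse reference genome comes from C57BL/6J, while CC030 belongs to the Collaborative Cross, a panel of recombinant inbred strains. The labels name no transgene or targeted allele. The naïve cells were depleted of lineage-positive cells, enriched on CD25 and sorted as lineage-negative CD90+ CD127+ CD25+ ICOS+ cells, with antibodies to CD3 and CD4 among the lineage antibodies. The cultured cells were sorted as lineage-negative CD90+ CD127+ ST2+ cells.

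The CD3 chains carry the antigen receptor of T cells to the cell surface and signal for it through tyrosine motifs. The receptor is a pair of α and β chains or of γ and δ chains. Each chain is assembled from variable and joining segments, and the β and δ chains also from diversity segments. These segments are rearranged in the thymus and spliced to a constant gene. Transcripts of a constant gene without a rearranged variable segment are called germline or sterile transcripts, and they are known from immature lymphocytes in which a receptor locus is accessible. ILC2s are tissue-resident lymphocytes that have no antigen receptor on their surface, share many transcription factors with T cells, and are counted as CD3-negative in a sort. A count under a CD3 or receptor gene in sorted ILC2s can come from the ILC2s or from T cells carried through the sort, and in bulk RNA fewer cells of a type and less RNA per cell cannot be told apart.

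The C57BL/6J libraries are called library 1, 2 and 3 here, by their replicate numbers, and they held 13533363 to 15234305 counts in genes, with a count at 15946 to 16553 genes. The naïve CC030 libraries held 1324595 to 1524751 counts spread over 43527 to 46111 genes, and the cultured libraries held 227445 to 5320028, which was 2.06% to 11.1% of their reads. The 8 genes together had 20229 to 27578 counts in a C57BL/6J library and 180 to 198 in a naïve CC030 library. Of 16 genes of ILC2 identity, 15, 15 and 16 had a count in C57BL/6J libraries 1, 2 and 3, led per exonic kb by *Id2*, *Arg1*, *Areg* and *Icos*. Library 3 stood apart. *Sftpc*, the surfactant gene of alveolar type II cells, had 1, 4 and 172153 counts in libraries 1, 2 and 3, and *Lyz2*, a lysozyme gene that alveolar type II cells share with myeloid cells, had 1, 167 and 14729. Of 10 genes on a myeloid list, *Lyz2* among them, 3, 4 and 5 had a count, with *Itgam*, *S100a8*, *S100a9* and *Siglecf* at 0 in all 3 libraries. Of 8 genes on a B cell list, 5, 3 and 7 had a count. *Ighm*, the most counted, had 4132, 3238 and 8920 counts, and *Cd79b* had 126, 404 and 813. *Cd79a* had 9, 21 and 251 counts, and *Pax5* had 1, 0 and 0. Of 9 genes on a list of NK cells and ILC1s, *Nkg7* had 509, 887 and 95 counts, *Klrk1* had 0, 18 and 56, and the others, *Ncr1* and *Klrb1c* included, were at 0 in all 3.

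In naïve C57BL/6J ILC2s, *Cd3g*, *Trbc1* and *Trbc2* were abundant in all 3 libraries, whereas *Cd3d* and *Trac* were mostly counts of library 1. Levels between genes are compared as CPM (counts scaled to a common library size, scaled by TMM over the 6 naïve libraries) per kb of annotated exons. On that scale *Trbc2* was at 1290 ± 313 (SD, n = 3), rank 105 of 21640 genes with a count, and *Trbc1* at 851 ± 162 (SD, n = 3), rank 193. *Cd3g* followed at 254 ± 120 (SD, n = 3), and the libraries of these 3 genes did not overlap in level. *Trac*, *Cd3d*, *Trdc*, *Cd247* and *Cd3e* had means of 42.0, 29.4, 8.68, 6.31 and 2.91, and among these 5 the libraries of neighbouring genes overlapped.

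**Figure D1:**
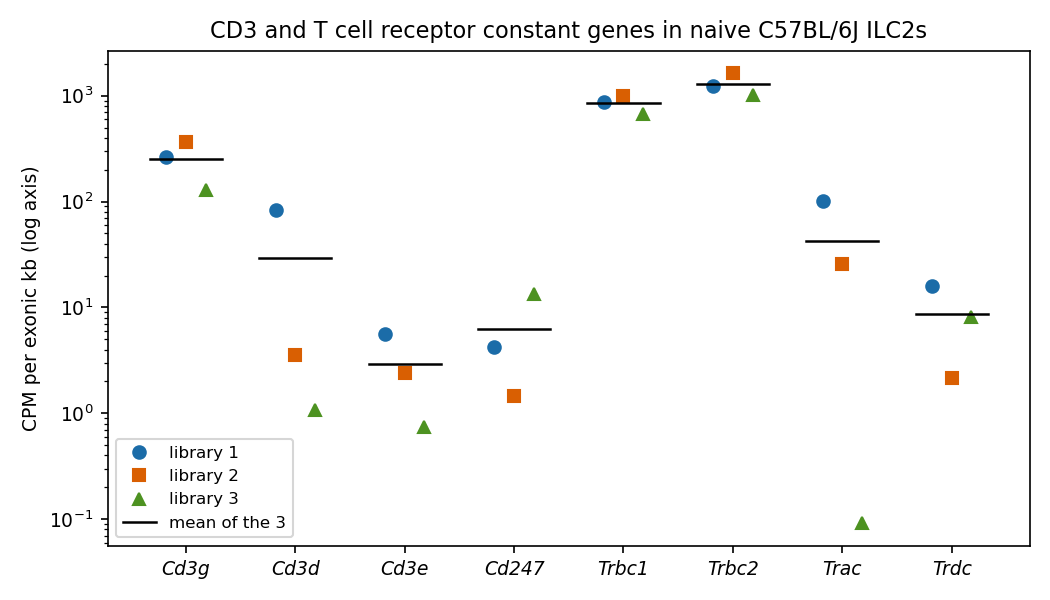
Levels of the 8 genes in naïve C57BL/6J ILC2s, in CPM per kb of annotated exon on a log axis. Points are the 3 libraries and bars their means; *Trbc1*, *Trbc2* and *Cd3g* lie within a 2.87-fold range over the libraries, while *Trac* spans 1096-fold.

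*Cd3g* encodes the γ chain of CD3 and lies on chromosome 9 (GRCm38, 44969572 to 44980431, minus strand). It had 7286, 10585 and 4890 counts in libraries 1, 2 and 3, or 831 ± 394 CPM (SD, n = 3), and was high in every library. *Cd3d*, which encodes the δ chain, starts 1354 bases from *Cd3g* on the opposite strand (44981786 to 44987339). It had 1270, 57 and 23 counts, so that library 1 held nearly all of them, and its mean of 53.4 ± 85.2 CPM (SD, n = 3) was 4.23 CPM without library 1. *Cd3e*, the ε chain that pairs with each of the other 2, lies 11400 bases beyond *Cd3d* (44998740 to 45009627, minus strand) and had 191, 86 and 35 counts. Its mean was 11.9 ± 10.1 CPM (SD, n = 3), and 6.39 CPM without library 1. Per exonic kb, *Cd3g* was 3.19 times *Cd3d* in library 1 but 103 and 118 times *Cd3d* in libraries 2 and 3. *Cd3g* was 47.6, 154 and 174 times *Cd3e* in the same order. *Cd247*, which encodes the ζ chain (chromosome 1, 165788681 to 165877277, plus strand), had 187, 68 and 826 counts and was highest in library 3, the library with the *Sftpc* and *Lyz2* counts. Its mean of 33.6 CPM was 15.04 CPM without library 3.

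Because *Cd3g* and *Cd3d* are neighbours that face away from each other and differed this far, their promoters are shown, from 250 bases before to 50 after each start, as RefSeq gives them on GRCm38.p6 (*Cd3g* chr9:44980382-44980681, minus strand, and *Cd3d* chr9:44981536-44981835, plus strand). Capitals mark matches on either strand to 5 short motifs, GATAA (bound by GATA factors), GGAAG (ETS), TGTGG (RUNX), CAGNTG (E proteins) and CTTTGA (TCF and LEF), none of which overlapped.
Cd3g: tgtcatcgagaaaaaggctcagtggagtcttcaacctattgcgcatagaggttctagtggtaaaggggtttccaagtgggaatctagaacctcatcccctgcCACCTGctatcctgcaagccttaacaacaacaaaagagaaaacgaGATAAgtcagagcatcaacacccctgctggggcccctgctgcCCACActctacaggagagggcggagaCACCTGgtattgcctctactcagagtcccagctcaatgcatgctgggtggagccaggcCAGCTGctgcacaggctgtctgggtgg
Cd3d: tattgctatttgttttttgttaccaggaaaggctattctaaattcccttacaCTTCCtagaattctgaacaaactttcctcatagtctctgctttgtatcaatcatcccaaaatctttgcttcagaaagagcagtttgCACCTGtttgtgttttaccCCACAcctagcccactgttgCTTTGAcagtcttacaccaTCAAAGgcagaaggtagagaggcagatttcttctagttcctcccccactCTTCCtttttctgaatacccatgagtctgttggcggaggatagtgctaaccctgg
The *Cd3g* window held 1 match to GATAA, 1 to TGTGG and 3 to CAGNTG. The *Cd3d* window held 2 matches to GGAAG, 1 to TGTGG, 1 to CAGNTG and 2 to CTTTGA. Of 32544 promoters of the same length, 25.3% held GATAA, 71.3% GGAAG, 55.8% TGTGG, 51.5% CAGNTG and 5215 promoters CTTTGA. For the motifs in that order, the window of *Cd3e* held 0, 3, 2, 1 and 0 matches. The window of *Cd247* held 0, 2, 3, 1 and 1. These are matches of letters and not measured binding.

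*Trbc1* and *Trbc2* are the duplicated constant genes of the β chain (chromosome 6, plus strand, 41538218 to 41539881 and 41546730 to 41548352). *Trbc1* had 5492, 6582 and 5920 counts and *Trbc2* had 7113, 9917 and 8170, so both were high in each library. *Trbc2* held 56.4%, 60.1% and 58.0% of their sum. The first coding exon has 375 bases in both genes and differs at 1 position (C260A, *Trbc1* base first, counted from 1 at the first base of the constant transcript), which is capitalised in the stretches around it (GRCm38, *Trbc1* chr6:41538447-41538507 and *Trbc2* chr6:41546959-41547019).
Trbc1: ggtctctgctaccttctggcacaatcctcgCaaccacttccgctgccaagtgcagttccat
Trbc2: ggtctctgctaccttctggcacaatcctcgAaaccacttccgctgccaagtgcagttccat
Of all stretches of 50 bases, 41.1% of those of *Trbc1* also occur in *Trbc2* and 44.0% the other way round. How reads that match both genes were counted is not stated. Both the division of reads between these genes and their sum are therefore uncertain, and the sum would be too low if such reads were left out. *Trac*, the α chain constant gene (chromosome 14, 54220521 to 54224206, plus strand), had 786, 210 and 1 counts. Its mean of 39.3 CPM was 12.0 CPM without library 1 and 58.9 CPM without library 3. The β constant genes together had 16.04, 78.6 and 14090 times the counts of *Trac*. *Trdc*, the δ chain constant gene 71.7 kb before *Trac* (54142851 to 54148868, plus strand), had 512, 73 and 364 counts, lowest in library 2, with a mean of 33.6 ± 26.5 CPM (SD, n = 3), or 19.8 CPM without library 1. Its antisense neighbour *Gm43434* had 232, 50 and 168. *Gm48719*, antisense to *Cd3e*, had 61, 17 and 8, and *Pou2f1*, which overlaps *Cd247* on the other strand, had 419, 116 and 469. Whether the counting used strand is not stated in the methods or labels, so reads of these overlapping genes cannot be told apart.

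The spread of the 8 genes can be read against that of other genes. Over the 10787 genes with a mean of at least 50 counts, the highest C57BL/6J library was a median of 3.10 times the lowest in CPM, and for 1029 genes a library was at 0. A ratio at least as high as that of *Cd3d* (77.0) was found in 13.1% of these genes, and for *Trac* (1096) in 9.59%. The ratios of *Cd247* (9.16), *Cd3e* (7.61) and *Trdc* (7.37) were reached by 24.1% to 26.5%, that of *Cd3g* (2.87) by 53.7%, and those of *Trbc2* (1.61) and *Trbc1* (1.47) by 86.0% and 89.99%. Of these genes, 126 were at least 5-fold above both other libraries in library 1, 160 in library 2 and 874 in library 3. *Cd3d* was the only one of the 8 genes among them, in library 1. TMM over the 6 naïve libraries raised all C57BL/6J levels, so that on the plain totals *Trbc1* was at 417 CPM in place of 637, *Trbc2* at 583 in place of 893 and *Cd3g* at 531 in place of 831.

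The receptor segments were next set beside the constant genes, since a fully rearranged transcript carries a variable segment. Whether the reads of a variable, diversity or joining row came from rearranged or unrearranged genes was not tested. For the β chain, joining and diversity segments were counted in every library, whereas variable segments were counted almost only in library 1. The 35 *Trbv* rows summed to 214, 1 and 0 counts, with 6, 1 and 0 of them present. Beside 12605, 16499 and 14090 counts of *Trbc1* and *Trbc2*, the *Trbv* share of the total was 1.67% (95% Wilson interval 1.46% to 1.91%) in library 1 and 0.00606% (0.00107% to 0.0343%) in library 2. In library 3 it was 0 of 14090 counts (95% Wilson interval 0% to 0.0273%). Such intervals cover counting error only, since these reads carry no molecular identifiers. *Trbv1*, the most counted of them, had 127, 0 and 0.

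The 14 *Trbj* rows summed to 539, 973 and 1086 counts, or 4.10% (3.78% to 4.45%), 5.57% (5.24% to 5.92%) and 7.16% (6.76% to 7.58%) of the total with the constant genes. The *Trbj1* rows, which lie 5′ of *Trbc1* (41533864 to 41535687), had 352, 692 and 723 of these, and the *Trbj2* rows between *Trbc1* and *Trbc2* had 187, 281 and 363. *Trbj1-1* alone had 211, 422 and 436. *Trbd1* had 57, 134 and 122 counts and *Trbd2* 74, 72 and 31. Library 1 was thus the lowest of the 3 for *Trbj* and the highest for *Trbv*.

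**Figure D2:**
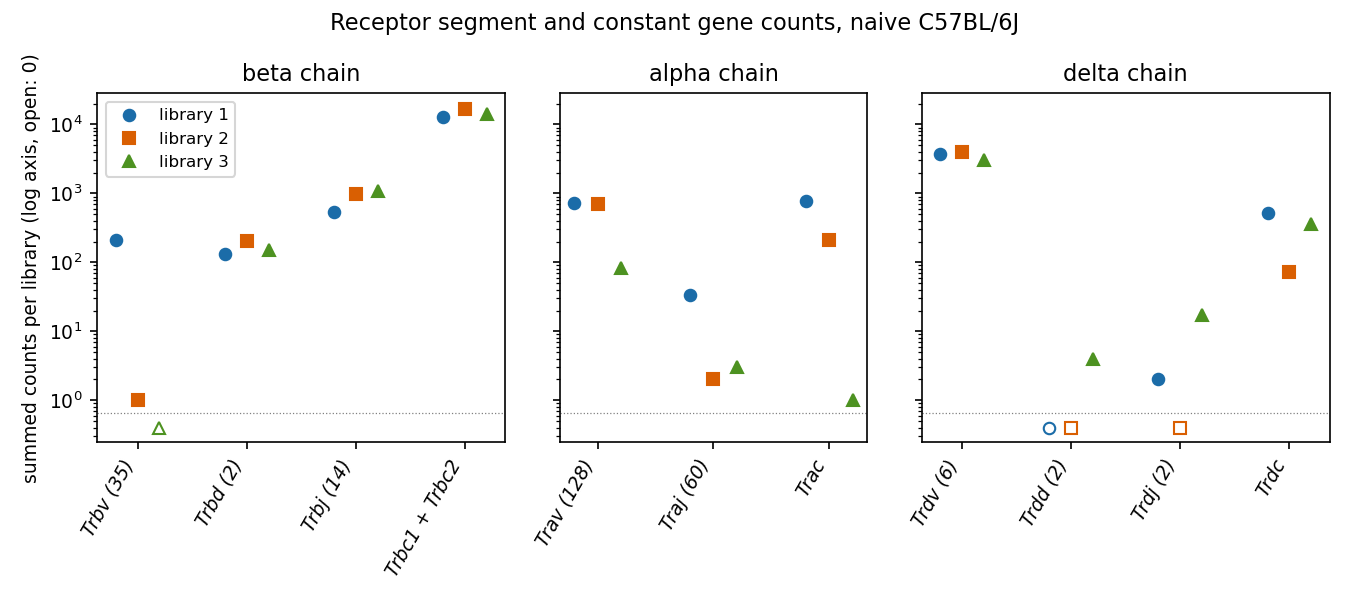
Summed counts of receptor segment rows and of the constant genes in each naïve C57BL/6J library, on a log axis, with the number of rows of a class in brackets and open symbols for a sum of 0. *Trbv* counts were 214, 1 and 0 in libraries 1, 2 and 3, while *Trbj* counts were 539 to 1086 and *Trbc1* and *Trbc2* counts 12605 to 16499.

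For the α and δ chains the counts lay differently. The 128 *Trav* rows summed to 721, 710 and 83 counts, with 9, 6 and 4 of them present, and *Trav6d-3* alone had 316, 293 and 64. *Traj* rows, 60 in number, summed to 34, 2 and 3. *Trav* was thus as high in library 2 as in library 1, although *Trac* had 786 counts in library 1 and 210 in library 2. Of the δ segments, *Trdv4* (chromosome 14, 54074905 to 54075515) had 3557, 3862 and 3007 counts, more than any other variable segment row and more than *Trdc* in each library. *Trdj* rows had 2, 0 and 17 and *Trdd* rows 0, 0 and 4. *Gm30275*, antisense to *Trdv4*, had 34, 1 and 0.

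The γ chain constant genes were not among the 8 genes, and of these *Tcrg-C4* had more counts in each library than any of the 8. *Tcrg-C4* had 26836, 26916 and 15167 counts and *Tcrg-C1* had 16413, 15627 and 5316, in contrast to *Tcrg-C2* with 180, 5 and 0 and *Tcrg-C3* with 4, 1 and 1. *Trgj4*, a γ joining segment, had 807, 634 and 462, and *Tcrg-V6* had 204, 378 and 86. *Tcrg-V6* and *Trdv4* encode variable regions that pair in a tissue-resident γδ T cell population of mice. Other γ variable rows had counts of the same order, with 269, 180 and 139 for *Tcrg-V5*, 228, 54 and 49 for *Tcrg-V4* and 91, 202 and 49 for *Tcrg-V7*. Whether any of these reads came from such T cells was not tested. *Tcrg-C2* was thus another constant gene whose counts were concentrated in library 1.

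T cell markers were then read library by library. Of 16 T cell markers outside the 8 genes, 12 had a count in library 1, 7 in library 2 and 4 in library 3, and their summed levels were 250, 118 and 178 CPM. *Cd40lg*, the CD40 ligand of helper T cells, had 322, 0 and 0 counts. *Ctla4*, an inhibitory receptor, had 161, 0 and 0, *Trat1*, an adaptor that stabilises the receptor complex, had 165, 0 and 0, and *Ccr7*, the lymph node homing receptor, had 52, 0 and 0. *Cd4* had 91, 1 and 0. These 5 markers were counted in library 1 and nearly nowhere else, and of the genes at least 5-fold above both other libraries there, *Cd40lg*, *Ctla4* and *Trat1* were among those on this list.

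Other T cell markers did not follow that order. *Themis*, a regulator of receptor signals, had 226, 122 and 0 counts, *Foxp3*, the transcription factor of regulatory T cells, 238, 9 and 136, and *Cd28* 0, 198 and 0. *Lef1* had 57, 237 and 131, and *Sit1* and *Cd27*, the list's most abundant genes per kb, had 362, 205 and 976 and 256, 263 and 836. *Cd5*, *Cd8a* and *Cd8b1* were at 0 in all 3 libraries, and *Cd6* had 1, 0 and 0. Library 1 thus held counts of *Cd4* and *Cd40lg*, which were at 1 or 0 counts in libraries 2 and 3. *Foxp3*, *Lef1*, *Sit1* and *Cd27* had counts in all 3 libraries, and *Cd28* in library 2 only. *Cd3g*, *Trbc1* and *Trbc2* had at least 4890 counts each in every library. The part of T cells in the counts of *Cd3g*, *Trbc1*, *Trbc2*, *Cd3d*, *Trac* and *Trbv* was not tested in any library.

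**Figure D3:**
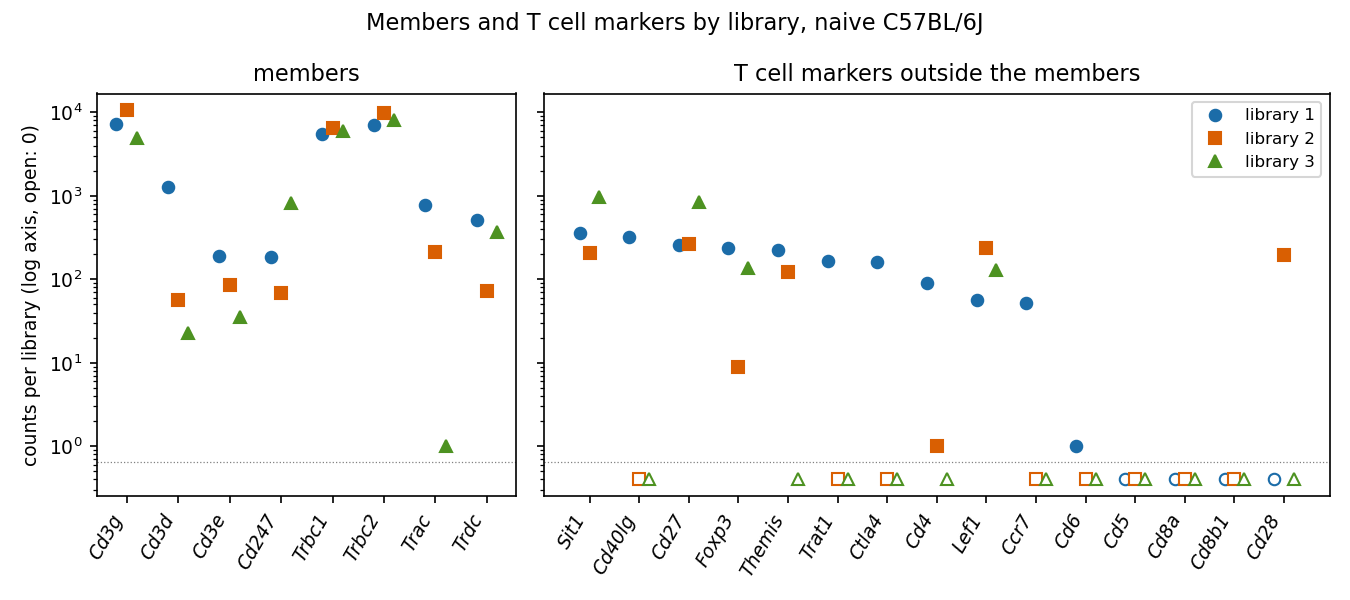
Counts of the 8 genes and of T cell markers in each naïve C57BL/6J library, on a log axis with open symbols for 0 counts. *Cd40lg*, *Trat1*, *Ctla4* and *Ccr7* had 52 to 322 counts in library 1 and 0 in libraries 2 and 3, and *Cd3d* had 1270, 57 and 23, whereas *Cd3g*, *Trbc1* and *Trbc2* had at least 4890 counts in each. *Foxp3*, *Lef1*, *Sit1* and *Cd27* had counts in libraries 1, 2 and 3, and *Cd28* in library 2 only.

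Genes of the machinery downstream of the receptor were expressed in all 3 libraries. Of 25 genes of receptor-proximal signaling in the tables, 24 had a count in each library, and their summed levels were 3717, 3815 and 5128 CPM. The most abundant per kb were *Skap1* with 9846, 9528 and 17398 counts, *Lat* with 2788, 3466 and 7637, and *Lcp2* with 2011, 2480 and 7108. *Lat* and *Lcp2* encode scaffolds onto which the receptor's kinases act. *Sh2d1a*, on the same list, had 124, 0 and 0. Of the signaling adaptors of other immune receptors, *Hcst* had 5507, 8468 and 3806 counts, *Fcer1g* 99, 221 and 286, and *Tyrobp* 27, 19 and 321. The recombination genes *Rag1* and *Dntt* and the pre-receptor gene *Ptcra*, which act in immature thymocytes, were at 0 in all 3 libraries. *Rag2*, also a recombination gene, had 0, 1 and 0. In contrast, *Gata3*, *Ets1* and *Bcl11b*, transcription factors shared by T cells and ILC2s, had 519 to 4559 counts in each library.

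The CC030 libraries need a caution before their values. Per the study's methods, C57BL/6J reads were aligned to mm10 and CC030 reads to an mm9 pseudogenome. The CC030 alignments were then converted to mm10 coordinates, and a check of gene positions was therefore made around each locus. C57BL/6J counts were laid out along the chromosome by exon, moved by up to 3 Mb in steps of 1000 bases, and correlated with the CC030 counts per exonic kb over genes within 4 Mb to each side. These correlations are across genes, which are not independent replicates. In the day 6 cultures the correlation at the CD3 locus was 0.05 with no shift and 0.54 at a shift of 192 kb, over 238 genes. At *Cd247* it was 0.02 with no shift and 0.44 at -1930 kb, over 162 genes, and at the TRA/TRD locus 0.01 and 0.50 at -619 kb, over 552 genes. The same 3 shifts were the highest with windows of 2 and 8 Mb. At the TRB locus no shift was settled, with 0.38 at 862 kb and 0.36 at 37 kb against 0.11 with no shift. In naïve CC030 the highest correlations at the 4 loci were 0.18 to 0.27, and with no shift the values were -0.03 to 0.12.

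**Figure D4:**
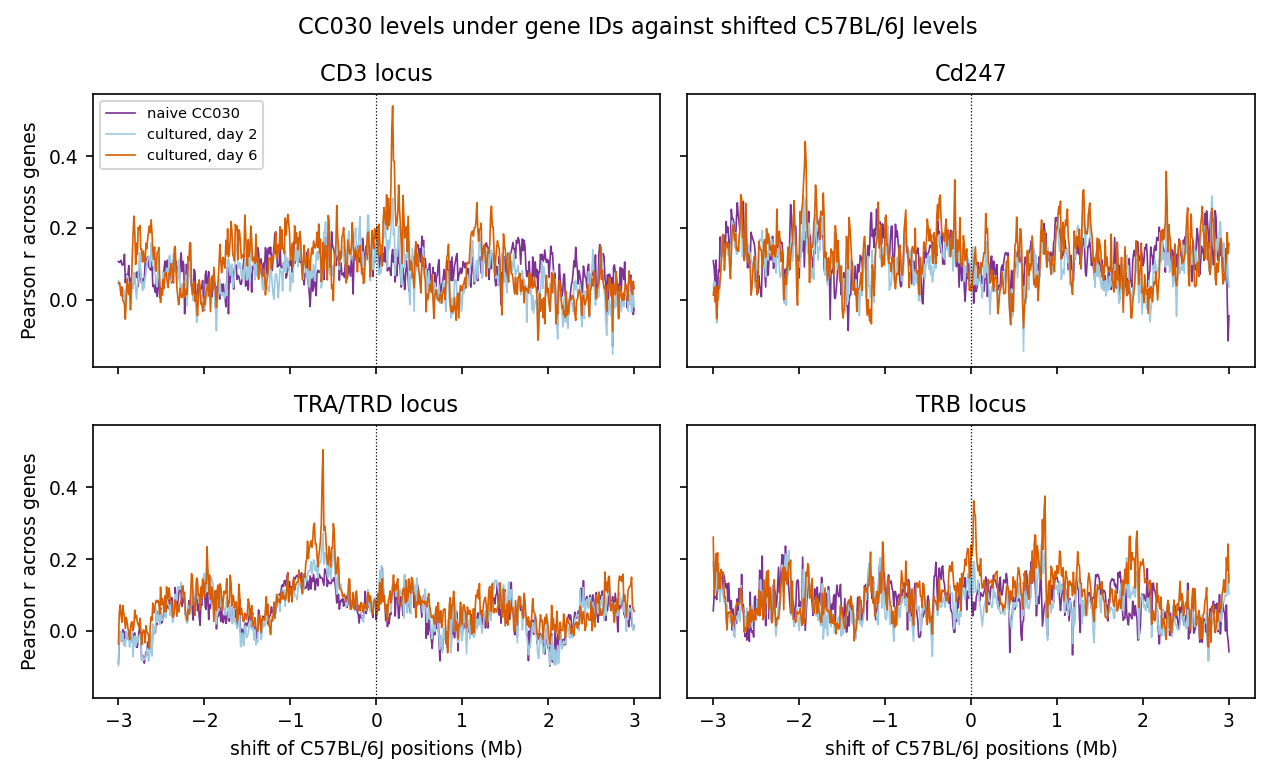
Pearson correlation across genes between counts under gene IDs in CC030 groups and naïve C57BL/6J counts moved along the chromosome (the highest value of each 10 steps is drawn), against the shift in Mb. In the day 6 cultures the curves peak at 0.54 (CD3 locus), 0.44 (*Cd247*) and 0.50 (TRA/TRD locus) away from the dotted line of no shift.

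Counts under a gene ID in CC030 are therefore given as counts under that ID, and whether they are the gene's own reads was not tested. In the naïve CC030 libraries *Cd3g* had 54, 42 and 48 counts, *Cd3e* 41, 56 and 58, *Cd3d* 31, 11 and 23, and *Cd247* 26, 23 and 40. *Trac* had 21, 14 and 6 counts, *Trbc1* 20, 18 and 8, *Trbc2* 5, 14 and 5, and *Trdc* 0, 2 and 1. The receptor rows were thus low, at 21 counts or fewer, and the large lead of *Cd3g* over *Cd3d* and *Cd3e* seen in C57BL/6J was not present under these IDs. Of the 128 *Trav* rows, 77 to 86 had a count in a naïve CC030 library, against 4 to 9 in C57BL/6J, and 21 to 27 of the 35 *Trbv* rows did. Of all 55401 gene rows, 43527 to 46111 had a count in a naïve CC030 library and 15946 to 16553 in a C57BL/6J library. More rows with a count in CC030 were thus found over all genes and not only among receptor segments.

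The comparison of the strains asks which of these genes differ between naïve CC030 and C57BL/6J ILC2s. Of the 8 genes, all tested, 4 were lower in CC030 (*Cd3g*, *Trbc1*, *Trbc2* and *Trdc*) and none was higher, where the test was edgeR's quasi-likelihood fit and an adjusted p under 0.05 over the whole table counted as passing. Among all 35551 genes tested, 12.2% were lower in CC030 and 76.3% differed in either direction, with a median log2 fold change of 7.03. The log2 fold change of *Trbc2* was -7.93 with a standard error of 0.61 (edgeR adjusted p = 0.000446), and that of *Trbc1* was -6.48 ± 0.55 (edgeR adjusted p = 0.00046). *Cd3g* was at -5.23 ± 0.53 (edgeR adjusted p = 0.00046) and *Trdc* at -6.16 ± 1.24 (edgeR adjusted p = 0.00207). For each of these 4 every CC030 library lay below every C57BL/6J library in CPM, as it did for 13.2% of all genes tested, and an exact permutation test of 3 against 3 gave p = 0.10, the smallest it allows. *Cd3d* (log2 fold change -2.41, edgeR adjusted p = 0.173), *Trac* (-2.62, 0.186), *Cd247* (-1.32, 0.190) and *Cd3e* (0.98, 0.293) did not pass the test. Without C57BL/6J library 1, the value of *Cd3d* turned to 0.90 and *Trdc* did not pass the filter on low counts. Without library 3, *Cd3d* (-3.32, edgeR adjusted p = 0.0291) and *Trac* (-3.57, 0.00312) were lower in CC030 and *Trdc* again did not pass the filter, and without library 2 *Cd247* was (-1.83, 0.0237).

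Related genes moved unevenly between the strains under their gene IDs. Of 25 genes of receptor-proximal signaling, 13 were lower and 2 higher in CC030, with a median log2 fold change of -1.58, led by *Skap1* (-5.05) and *Lat* (-5.63). Of 15 T cell markers tested, 2 were lower and 3 higher, and the higher ones included *Cd8a* (9.80) and *Cd6* (8.98), which had at most 1 count in C57BL/6J. Of 3 γ constant genes tested, *Tcrg-C4* (-8.33) and *Tcrg-C1* (-8.75) were lower. All 4 recombination and pre-receptor genes were higher, led by *Rag1* with 0 counts in the C57BL/6J libraries and 84, 88 and 106 in CC030. Of 16 genes of ILC2 identity, 14 were lower and 1 higher in CC030, with a median log2 fold change of -5.32. They were led by *Icos* (-7.65) and *Id2* (-9.04). Lower levels under gene IDs in CC030 were thus not particular to the 8 genes. Strain cannot be told apart here from the alignment, which differed between the strains.

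In the cultured CC030 cells the 8 genes were counted at low levels under their IDs throughout. The highest single values were 109 counts of *Cd3e*, 61 of *Cd247*, 28 of *Cd3g* and 27 of *Cd3d*, and *Trbc1*, *Trbc2*, *Trac* and *Trdc* never exceeded 12, 10, 8 and 4 counts. None of the 8 reached 10 counts in all 20 libraries, so no genes of like pattern were sought.

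**Figure D5:**
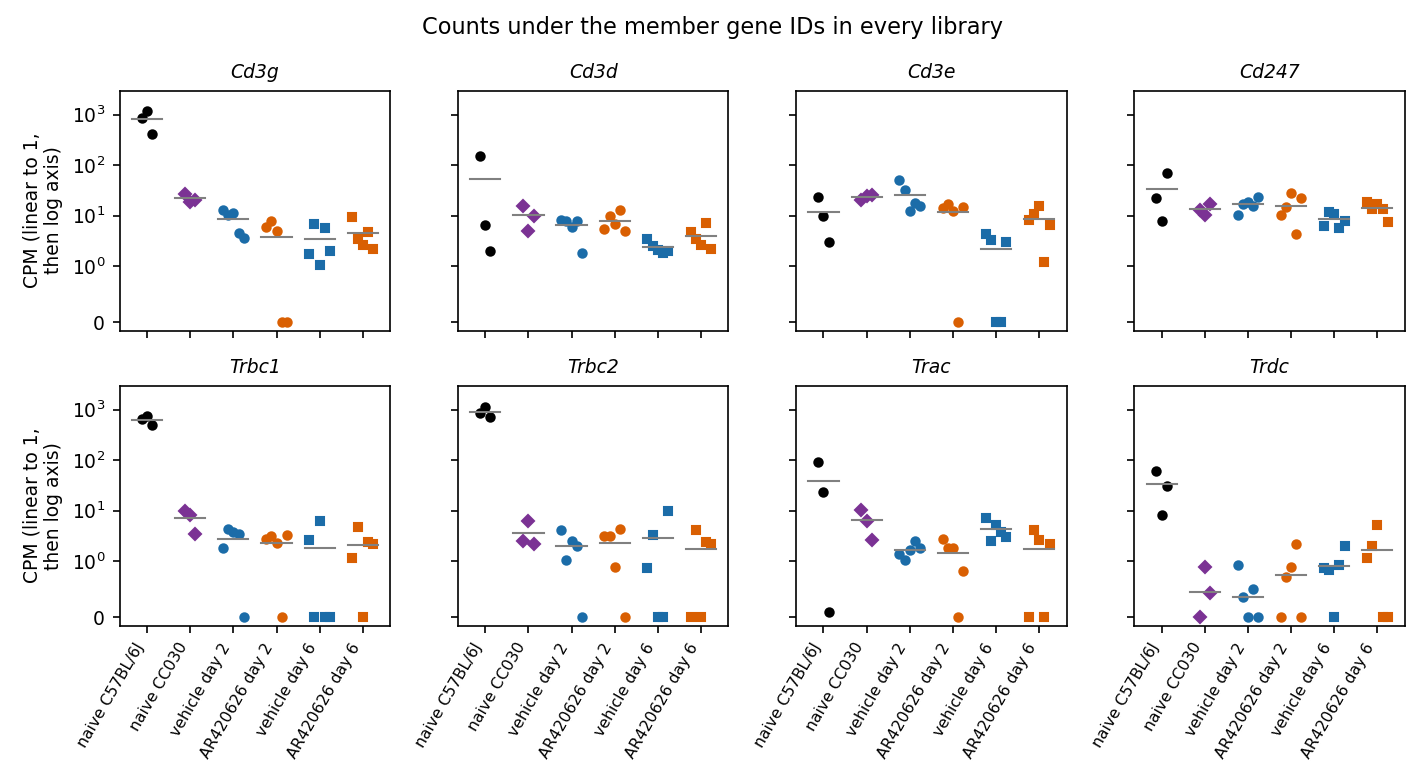
Levels under the 8 gene IDs in every library, in CPM on an axis that is linear to 1 and logarithmic above, with bars at group means; naïve libraries were scaled by TMM together and cultured libraries separately. *Cd3g*, *Trbc1* and *Trbc2* were at 419 CPM or more in each C57BL/6J library and at 26.7 CPM or less in every CC030 library.

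The day 6 comparison asks what AR420626 changed in cultured ILC2s. *Cd247* was the only one of the 8 genes that passed the filter on low counts. In mice 1 to 5 it had 7, 14, 10, 6 and 8 counts with vehicle and 16, 20, 13, 11 and 7 with AR420626. It was higher with AR420626 in 4 of 5 mice in CPM, and its log2 fold change, 0.99 ± 0.60 (standard error, edgeR adjusted p = 0.297), did not pass, where 11.4% of 9421 genes tested did. *Cd3e*, which was too low for the test, had 5, 4, 0, 0 and 3 counts with vehicle and 7, 16, 12, 1 and 6 with AR420626. It was higher in CPM in 5 of 5 mice, at 2.13 ± 2.02 CPM and 8.43 ± 5.28 CPM (SD, n = 5), and an exact sign permutation test gave p = 0.063, the smallest that 5 pairs allow. *Cd3d* had 4, 3, 2, 2 and 2 counts with vehicle and 4, 5, 2, 6 and 2 with AR420626. It was also higher in CPM in 5 of 5 mice (exact sign permutation p = 0.063). In mice 1, 3 and 5 the counts were equal, so that only the scaling to library size set the direction there. Of 15 genes of receptor-proximal signaling tested there, 2 were lower with AR420626, *Skap1* (log2 fold change -1.79) and *Pag1* (-1.21), and none was higher.

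At day 2, *Cd3d*, *Cd3e*, *Cd3g* and *Cd247* were tested and none passed, and 0% of 20865 genes did by edgeR, with 403 at an unadjusted p under 0.05 and 32 called by DESeq2. *Cd3e* had 109, 88, 29, 36 and 17 counts with vehicle and 31, 47, 27, 0 and 18 with AR420626, lower in CPM in 5 of 5 mice, and its log2 fold change was -1.15 ± 0.60 (standard error, edgeR adjusted p = 1). *Cd3g* had 28, 28, 26, 9 and 4 counts and 13, 22, 11, 0 and 0, also lower in 5 of 5 mice (log2 fold change -1.36, edgeR adjusted p = 1). AR420626 mouse 4 at day 2 was the library with the fewest counts, 227445. In CPM, *Cd3e* thus had the opposite direction at the 2 days in every mouse, but some differences were small. At day 2 mouse 3 was at 12.26 CPM with vehicle and 12.13 with AR420626, and mouse 5 at 15.32 and 14.75. At day 6 mouse 4 had 0 and 1 counts. The difference between the days was not tested.

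The vehicle cultures at day 6 and day 2 compare time in culture. *Cd3e* was at 25.5 ± 15.8 CPM (SD, n = 5) at day 2 and 2.13 ± 2.02 at day 6, lower in 5 of 5 mice, but it did not pass the filter on low counts, and the exact sign permutation test gave p = 0.063. *Cd247* was at 17.0 ± 4.82 and 8.37 ± 2.70 CPM (SD, n = 5), lower in 5 of 5 mice, and its log2 fold change was -1.03 ± 0.49 (standard error, edgeR adjusted p = 0.152), where 17.3% of 15819 genes tested passed. *Trac* was higher at day 6 in 5 of 5 mice, at 1.69 ± 0.53 and 4.29 ± 1.85 CPM (SD, n = 5), with no more than 8 counts in a library. Of 22 genes of receptor-proximal signaling tested, none passed, and of 12 T cell markers *Cd5* (log2 fold change -1.56) was lower.

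Last, the rows that lie where the exons of the 8 genes would be counted at the day 6 shifts were examined. They are *Ift46* for *Cd3g*, *Ift46* and *Tmem25* for *Cd3d*, *Kmt2a* for *Cd3e*, *Lmx1a* for *Cd247* and *Rnf212b* for *Trac*. No row lay there for *Trdc*. At the TRB locus no shift was settled, and no row lay there for *Trbc1* or *Trbc2* at 862 kb. At 50 kb, the shift found with windows of 8 Mb, *Trbc2* would be counted under *Gm37841*, which had 0 counts in C57BL/6J and at day 6 a log2 fold change with AR420626 of 1.23 (edgeR adjusted p = 0.00488). The exons of *Cd3g* covered 71 of their 3269 bases in *Ift46*. By the C57BL/6J levels, at least 36.0% of the reads moved to that row would come from *Cd3g* and at least 20.3% from *Cd3d*. The share was at least 27.0% from *Cd3d* in *Tmem25*, 57% from *Cd3e* in *Kmt2a* and 48.3% from *Cd247* in *Lmx1a*. Bases in overlapping exons of different transcripts were counted more than once in a row's total, so these shares are lower limits. It was 100% from *Trac* in *Rnf212b* and from *Trbc2* in *Gm37841*. These shares rest on C57BL/6J sums over the libraries, and *Cd3d* had 1270 of its counts in library 1. *Ift46*, a gene of cilium transport, had 5, 0 and 246 counts in C57BL/6J. In the day 6 cultures it had 431, 254, 343, 717 and 284 counts with vehicle and 879, 1381, 875, 1001 and 777 with AR420626, with no overlap, and its log2 fold change was 1.82 ± 0.23 (standard error, edgeR adjusted p = 2.12e-06). Its vehicle level also rose from day 2 to day 6, with a log2 fold change of 3.43 (edgeR adjusted p = 0.00900). *Tmem25* had at most 1 count in C57BL/6J and was at 71.3 ± 11.5 CPM with vehicle and 215 ± 64.7 with AR420626 at day 6 (SD, n = 5), a log2 fold change of 1.84 (edgeR adjusted p = 7.79e-06). *Lmx1a*, a transcription factor gene with 0, 1 and 0 counts in C57BL/6J, had 140, 38, 46, 313 and 67 counts with vehicle and 22, 42, 22, 24 and 24 with AR420626, a log2 fold change of -1.30 (edgeR adjusted p = 0.00676). *Kmt2a*, which had 415 to 595 counts in C57BL/6J, did not pass at day 6 (0.64, edgeR adjusted p = 0.219), and *Rnf212b* had 0 to 28 counts at day 6 and was not tested there. Which gene the reads under these rows came from was not tested, so no direction is given for the CD3 genes themselves in cultured CC030 cells.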

How the data were processed

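Full-length cDNA libraries were made from low-input RNA and sequenced, and FastQC, fastp, STAR and HTSeq are named in the submitters' processing notes. The deposited values are raw counts per Ensembl gene, which the authors counted with HTSeq. C57BL/6J reads were aligned to mm10 and CC030 reads to an mm9 pseudogenome, and the CC030 alignments were converted to mm10 coordinates before counting. The annotation and the strand setting of the counting are not stated in those notes. Reads were not collapsed by molecular identifier, so counting intervals are lower limits of the error. Columns of all 26 libraries were used, and 5 summary rows of the cultured table that name no gene were left out.

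Symbols, positions and exon lengths came from GENCODE vM21 (GRCm38), matched by ID for 55141 of 55401 rows. Counts were tested with edgeR 4.0.16 (TMM, low genes removed by filterByExpr at its minimum of 10 counts and total of 15, robust quasi-likelihood test, Benjamini-Hochberg adjustment at 0.05) in R 4.3.3, after the code was tested on simulated data. The strain comparison used the 6 naïve libraries. The 3 culture comparisons carried the mouse as a block, since the labels give the same 5 mice in each arm. Deviations of same-numbered libraries from their group means correlated by -0.100 to 0.302 (AR420626, day 6), -0.129 to 0.344 (AR420626, day 2) and -0.360 to 0.258 (vehicle, days). Single genes were tested by exact permutation, on log2(CPM + 1). Naïve and cultured tables were normalized separately, so levels set side by side across them are not tested. The depth of 13533363 to 15234305 counts makes C57BL/6J values the more precise, against 227445 to 5320028 in cultures. P-values measure the spread between mice of 1 experiment.

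The 8 genes and the gene lists were chosen with earlier results of these data known. Named beside them are the 5 most counted receptor segments, all T cell markers, the most abundant 4 genes per exonic kb of a list, up to 2 list genes with the smallest p in a comparison, and genes that overlap a locus or lie where the position check points. Other genes named for how they compare, such as *Sh2d1a*, *Trbv1*, *Tcrg-C2*, *Tcrg-C3* and the markers of other cell types, were chosen after their values were seen. Items under this rule that the text leaves out are not reported here. Alternatives were DESeq2 1.42.0, other size factors, other count minimums, leaving out libraries, the replicate block, and other windows, steps and rank correlation in the position check.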

Additional observations from a re-analysis of the deposited data

Results flagged for a closer look

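*Cd3e* in the AR420626 cultures at day 2 had 1 library apart from the others, mouse 4 at 0 CPM, where the other 4 mice lay between 12.1 and 16.8 CPM. That library was also the one with the fewest counts in genes, 227445. This was judged against a critical value at the 95% level, which chance passes in about 1 of 20 sets, and 13 sets of 5 libraries were examined.

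The difference in *Cd3e* with AR420626 lay in opposite directions at the 2 days, lower in CPM in 5 of 5 mice at day 2 and higher in 5 of 5 at day 6. At day 2 it was small in mouse 3 (12.26 CPM with vehicle and 12.13 with AR420626) and in mouse 5 (15.32 and 14.75). The mean difference in CPM at day 6 was 20.26 above that at day 2, and this difference was not tested.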

How the results depend on the processing

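In the strain comparison a minimum of 10 counts in every library left 3573 genes called and 1 of the 8 genes lower in CC030, *Cd3g*, because fewer genes were tested. The replicate block, which rests on a shared number only, gave 26602 calls and the same number of the 8 genes lower (4), and correlations of same-numbered libraries were -0.010 to 0.004. Leaving out 1 library gave 23067 to 24411 calls and 3 to 5 of the 8 genes lower, with *Cd3d* from -3.32 to 0.90. Among cultures, DESeq2 called 32 genes and no filter 15 at day 2, where edgeR called none, and DESeq2 called 4149 for vehicle over time. Leaving out 1 mouse gave 604 to 1221 calls for AR420626 at day 6, 0 at day 2, and 994 to 5376 for vehicle over time, and *Cd247* at day 2 ran from -0.52 to 0.01. Without the mouse pairing (no replicate block) the counts were 995, 0 and 1956, and the call of no tested gene of the 8 changed.

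On the plain totals *Trbc1* was at 417 CPM and *Trbc2* at 583, and with TMM over the C57BL/6J libraries alone at 419 and 587. Counting only segments with at least 10 counts left 0 *Trbv* in library 2, 7 and 6 *Trbj* in libraries 1 and 2, 1 *Trav* in library 3, and 1, 0 and 0 *Traj*. In the position check, with windows of 2 Mb, windows of 8 Mb, rank correlation and steps of 100 bases in that order, the naïve CC030 shift was 1651, 26, 1649 and 1703.3 kb at the CD3 locus and -2065, -1142, -1055 and -2716.6 kb at *Cd247*. For *Cd247* at day 2 it was 713, -1930, -1918 and -1929.4 kb, and at day 6 -1917 kb by rank. Other shifts that moved were -181 kb (CD3 locus, day 2, rank), -922, -616 and -596.8 kb (TRA/TRD locus, naïve, 8 Mb, rank and 100 bases) and 62 kb (TRA/TRD locus, day 2, 2 Mb). At the TRB locus they were -407, -323 and -1058 kb (naïve, 8 Mb, rank and 100 bases), 862, -1060 and 825 kb (day 2, the same settings) and 1850, 50 and 88 kb (day 6, 2 Mb, 8 Mb and rank). The cause of these moves was not tested. Leaving out single C57BL/6J libraries for levels and the steps of 100 bases were chosen after seeing the data. Low depth limits the cultured values, where most of the 8 genes had under 10 counts.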
